A study of Mus musculus with 4 samples.

Results

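The sebaceous gland lipid genes are 10 genes through which the oil gland of the skin makes, stores and regulates sebum: Scd1, Scd3, Elovl3, Soat1, Awat1, Awat2, Mc5r, Far2, Cidea and Plin2. They were chosen by name among the array's gene probes (Awat1 was also sought as Dgat2l3, Awat2 as Dgat2l4 and Plin2 as Adfp), and 9 of the 10 had a probe, with 11 probes in all among the 41174 gene probes of the array. Soat1 had 3 probes and the other 8 genes 1 each. No probe carried the name or the RefSeq accession of Awat1, so its expression was not measured here. Of the 9 genes, 7 passed the filter on dim probes (Scd1, Scd3, Elovl3, Soat1, Awat2, Cidea and Plin2), while Far2 and Mc5r were not well above background on any of the 4 arrays. The skin studied had lost ADAM17 from its keratinocytes, a protease anchored in the cell membrane that cuts other surface proteins free, growth factors of the EGF family included.

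The conditional knockout mice (cKO) were homozygous for a floxed Adam17 allele and carried a Krt14-Cre transgene. Their controls were Cre-negative littermates, which were bred from parents with floxed alleles. Whether a control carried 1 or 2 floxed Adam17 alleles is not given in the labels, and Cre itself and the loss of ADAM17 cannot be told apart. All animals were 10 days old and on a mixed 129Sv and C57BL/6 background, and 1 cKO and 1 control animal came from each of 2 litters, which gave 2 arrays per group. Every back skin sample had its own array, and all 4 arrays lay on a single slide. Values are log2 processed signals minus the array's 75th percentile, so that 0 is the brightness that 75% of the gene spots do not exceed and a difference of 1 is a factor of 2. Differences are cKO minus control, fitted with limma over 15552 genes, with p-values adjusted over all of them and a threshold of 0.05.

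Sebaceous glands open into the hair follicle. Their outer cells, in which the Krt14 promoter is also active, divide and fill with lipid as they move inward, and finally burst to release sebum. Mouse sebum is rich in wax esters, cholesterol esters and triglycerides, and its making needs fatty acids that are elongated and desaturated, fatty alcohols, the acyltransferases that join them, and droplet proteins that hold the product. Several of these genes are also used elsewhere in skin, fat cells included.

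The 4 arrays had 53.7% to 56.6% of gene spots well above background and no saturated gene spot. The brighter Adam17 probe stood at 69.0% of control in cKO skin and the other at 68.5% (adjusted p = 0.114 for the gene). The skin's own markers were present: all 10 epidermal keratinocyte markers, all 8 dermal fibroblast markers and all 10 markers of the hair follicle's sheath and shaft passed the filter. Of 17 genes chosen as marks of the sebaceous gland and its duct, 14 passed, among them Krt79 and Pparg.

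In cKO skin against control skin, 0 of the 7 measured members passed the test, where 0.341% of all genes did (53 of 15552, with 0.0707% of genes higher and 0.27% lower). At an unadjusted p under 0.05 stood 1 of the 7, Soat1, against 16.2% of all genes. With litter as a replicate block, 0 members passed as well (adjusted p from 0.163 for Soat1 to 0.758 for Scd1), and 0 of all genes did. At an unadjusted p under 0.05 in that fit stood 2 members, against 23.8% of all genes. The median difference of the 7 was -0.41, beside 0.03 over all genes, and it was -0.09 in litter 1 and -0.55 in litter 2. Soat1, Cidea and Plin2 had both cKO arrays below both control arrays, which was so for 21.4% of all genes, and none of the 7 had both above, which was so for 28% of all genes. The other 4 overlapped between the groups, and for Scd1, Scd3, Elovl3 and Awat2 the litters gave differences of opposite sign, as they did for 27.5% of all genes. With normexp in place of the scanner's background subtraction the difference turned sign for Elovl3 (-0.23) and Scd3 (0.0026). It was -0.17 for Awat2, -0.27 for Scd1, -0.81 for Soat1, -0.63 for Cidea and -0.58 for Plin2. The median of the 7 was then -0.27. Whole skin cannot tell fewer cells of a type from less RNA per cell, which holds for every value here.

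**Figure D1:**
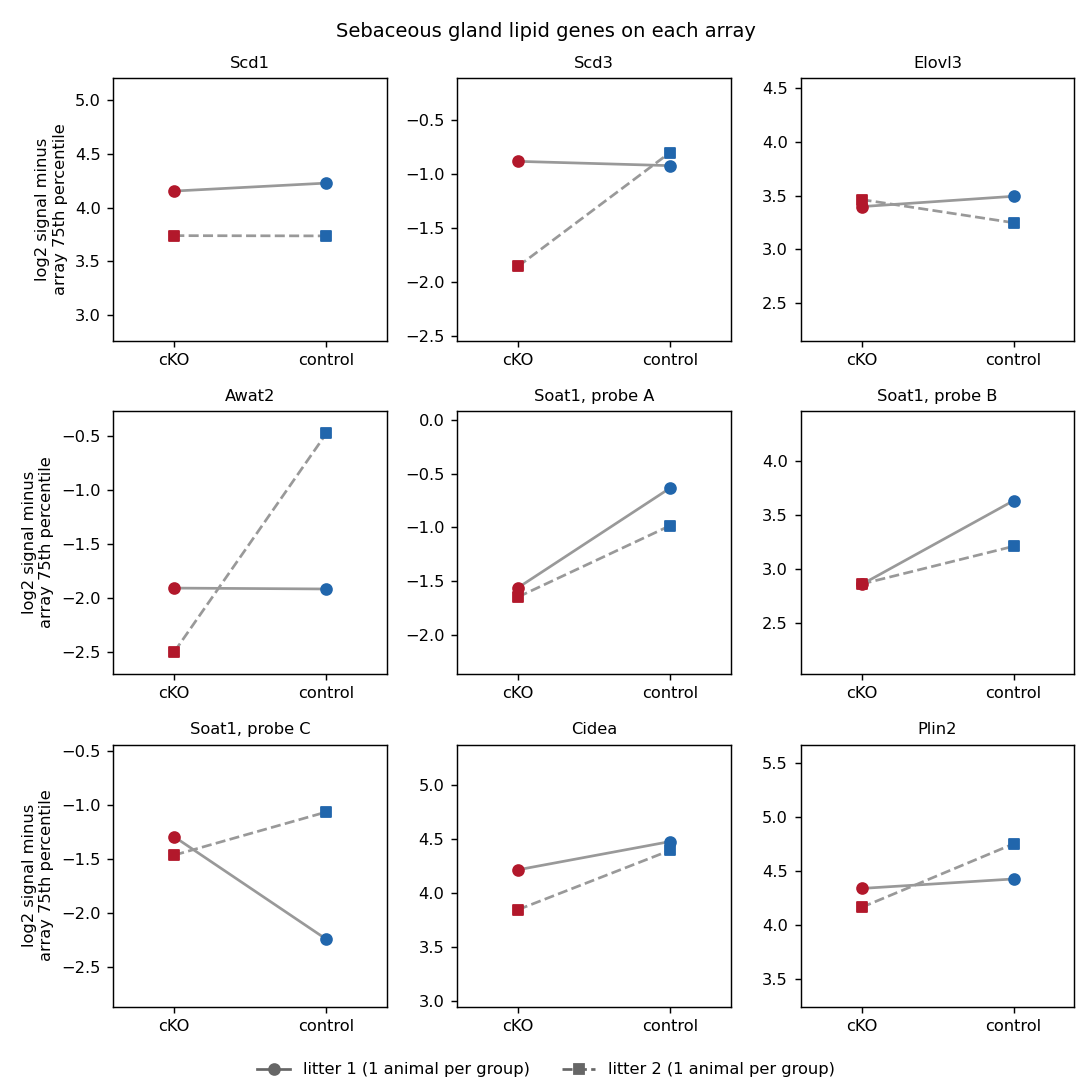
Log2 signal minus the array's 75th percentile (vertical axis, with the same span in every panel) of the 7 measured genes in cKO (left) and control skin (right), with 1 point per animal and a line joining littermates. The lines of Scd3 and Awat2 are nearly level in litter 1 and steep in litter 2, and probe C of Soat1 has lines of opposite slope.

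The desaturases and the elongase set the chain length and the double bonds of sebum fatty acids. Scd1, the main stearoyl-CoA desaturase of skin, whose loss in asebia mice leaves small sebaceous glands, measured 4.15 and 3.74 in the cKO arrays of litters 1 and 2, against 4.23 and 3.74 in the control arrays. Its arrays were thus set apart by litter and not by genotype, with a difference of -0.04 ± 0.23 (SE; 95% interval -0.66 to 0.59; adjusted p = 0.954). With 1 array left out it ranged from -0.28 to 0.21. Its probe lies on chromosome 19 (mm9, 44469387 to 44469446, minus strand), that of Scd3 at 44316703 to 44316762 (plus strand) and that of Elovl3 at 46209762 to 46209821 (plus strand) of the same chromosome.

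Scd3 encodes a related desaturase known from the sebaceous gland and the Harderian gland of the mouse, and it measured -0.88 and -1.86 in the cKO arrays, against -0.92 and -0.80 in the control arrays. The cKO array of litter 2 stood alone below the other 3. The difference was 0.04 in litter 1 and -1.06 in litter 2, and -0.51 ± 0.34 (SE; 95% interval -1.43 to 0.41; adjusted p = 0.533) in the fit. Without cKO replicate 2 it was -0.02, and without cKO replicate 1 it was -0.997. The probes of Scd1 and Scd3 differ widely, with 21 matching bases in their best ungapped alignment over 59 and no shared run longer than 6, so that these paralogs were read by distinct sequences.

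Elovl3 extends saturated and monounsaturated fatty acids to very long chains, and mice without it have a sparse coat and disturbed sebum lipids. It measured 3.40 and 3.46 in the cKO arrays, against 3.49 and 3.25 in the control arrays, so the cKO values lay between the control values. The difference was 0.06 ± 0.12 (SE; adjusted p = 0.838), with a 95% interval of -0.26 to 0.38. Among the 7 it had the narrowest interval, and without control replicate 2 the difference was -0.063.

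Wax esters form when an acyltransferase joins a fatty acid to a fatty alcohol. Awat2, an acyl-CoA wax alcohol acyltransferase, measured -1.91 and -2.50 in the cKO arrays, against -1.92 and -0.47 in the control arrays. In litter 1 the littermates were alike, with processed signals of 206 in the cKO and 199 in the control animal. In litter 2 the signals were 137 in the cKO and 565 in the control animal, so that the cKO stood at 24.5% of its littermate. The control array of litter 2 was the highest of the 4 and the cKO array of the same litter the lowest. The fitted difference was the largest of the 7 and the least certain, at -1.01 ± 0.53 (SE; 95% interval -2.45 to 0.43; adjusted p = 0.446). Its probe lies on chromosome X (mm9, 97597881 to 97597940, minus strand). The difference was -0.29 without control replicate 2 and -1.73 without control replicate 1. The gap of -2.04 between the litters' differences was exceeded, in size, by 0.238% of all genes, and that of Scd3, -1.10, by 1.36%, where the median gap was 0.12. With 1 animal per genotype and litter, a difference between litters could not be tested.

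Far2 makes the fatty alcohols that wax esters need. Its probe (chromosome 6, mm9, 148130437 to 148130496) gave processed signals of 6.73 and 9.09 in cKO skin, against 6.82 and 8.19 in control skin. None of these was well above background, so no fold is given.

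Scd3, Awat2 and Plin2 each had their lowest array in the cKO animal of litter 2 and their highest in the control animal of that litter, and their promoters are shown for that reason. The share of all genes with this order was not counted. For Scd3 the highest array, at -0.80, lay close to the arrays of litter 1 (-0.88 in cKO and -0.92 in control). Promoters were taken from RefSeq (GRCm38.p6), which gave 7 windows for 6 of the 10 members, with 2 starts for Awat2. The 6 include Awat1, which had no probe, and Far2, which missed the filter. The 250 bases before each start are printed, with matches to the searched motifs in capitals.
Scd3, chr19:44203038-44203287, plus strand: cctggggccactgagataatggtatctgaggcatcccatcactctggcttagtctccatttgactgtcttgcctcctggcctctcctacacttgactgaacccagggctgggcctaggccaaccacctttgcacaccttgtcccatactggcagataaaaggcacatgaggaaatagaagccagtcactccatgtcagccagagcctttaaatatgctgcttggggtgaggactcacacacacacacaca
Awat2, first start, chrX:100412588-100412837, minus strand: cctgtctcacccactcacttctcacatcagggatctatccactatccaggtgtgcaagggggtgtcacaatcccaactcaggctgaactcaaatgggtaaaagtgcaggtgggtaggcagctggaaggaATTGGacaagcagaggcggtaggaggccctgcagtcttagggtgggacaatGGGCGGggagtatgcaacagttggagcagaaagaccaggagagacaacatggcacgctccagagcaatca
Awat2, second start, chrX:100442718-100442967, minus strand: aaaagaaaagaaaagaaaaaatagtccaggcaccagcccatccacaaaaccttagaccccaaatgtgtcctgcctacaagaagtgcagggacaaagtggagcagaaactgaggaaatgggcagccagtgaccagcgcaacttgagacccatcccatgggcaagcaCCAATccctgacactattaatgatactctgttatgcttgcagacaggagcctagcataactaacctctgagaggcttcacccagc
Plin2, chr4:86670060-86670309, minus strand: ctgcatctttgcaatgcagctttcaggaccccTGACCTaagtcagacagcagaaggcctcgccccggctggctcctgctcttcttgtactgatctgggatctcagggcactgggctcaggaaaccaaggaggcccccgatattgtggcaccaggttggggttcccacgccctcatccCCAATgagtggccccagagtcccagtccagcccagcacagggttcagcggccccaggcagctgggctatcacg
The motifs searched on both strands, over 300 bases with 50 after the start, were the nuclear receptor element AGGTCA, its repeat AGGTCANAGGTCA that is bound by PPAR with RXR, the sterol regulatory element TCACNCCAC, the E-box CACGTG, the GC box GGGCGG and the CCAAT box CCAAT. The element AGGTCA lies within the repeat, and the other motifs do not contain each other. The Scd3 window held none of them. The Plin2 window held a nuclear receptor element on the opposite strand and a CCAAT box on the same strand, both in capitals. Its GC box lies past the printed bases, and its E-box crosses the start and is not in capitals. Each Awat2 window held a CCAAT box, on the opposite strand (ATTGG) at the first start and on the same strand at the second, and the first also held a GC box. Such letters are common, and of 32851 promoter windows, 37.4% held CCAAT and 35.7% held GGGCGG. Among the 7 member windows, 5 held CCAAT, 4 held GGGCGG, and 1, that of Plin2, held AGGTCA and CACGTG. Of all windows, 16.3% held the nuclear receptor element and 7.15% the E-box. The sterol regulatory element (1.24% of all windows) and the repeat (0.0396%) were in none of the 7. A match is only a run of letters and a missing one says nothing of the factor.

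Soat1 joins cholesterol to a fatty acid and so makes cholesterol esters, and mouse strains with a defective Soat1 have an abnormal hair interior. The probe that represented it measured 2.85 and 2.86 in the cKO arrays, against 3.63 and 3.21 in the control arrays. The cKO animals were nearly equal, and both were below both controls. The difference was -0.56 ± 0.16 (SE; 95% interval -1.01 to -0.12), which puts cKO skin at 67.6% of control, and it had an adjusted p of 0.236 (0.163 with the replicate block). It was -0.78 in litter 1 and -0.35 in litter 2. Without control replicate 1 it measured -0.35 and without control replicate 2 -0.78.

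The 3 probes of Soat1 did not give the same result, so they are given one by one, lettered A to C in their order along the transcript. The first 30 bases of probes B and C are shown, with the base of the transcript at which the array's design places their start. Both lie on chromosome 1, on the minus strand, in mm9. No exon annotation of that build was used here.
Probe B, base 2987, chr1:158359977-158360036: tactaataatcccaaaatggctcctaaggc
Probe C, base 4198, chr1:158358766-158358825: taagactgcaaactacttagcattcaaaga
Probe B has the highest mean signal and stands for the gene above. Probe A measured -1.56 and -1.65 in the cKO arrays, against -0.64 and -0.98 in the control arrays. Its difference was -0.79 ± 0.15 (SE; 95% interval -1.19 to -0.40; adjusted p = 0.151 over 22190 probes), with -0.92 in litter 1 and -0.66 in litter 2. Both of these probes had cKO below control in each litter. Over probes, 0 of the 9 measured member probes passed the test, where 0.158% of all probes did.

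Probe C measured -1.29 and -1.46 in the cKO arrays, against -2.24 and -1.06 in the control arrays. Its difference was 0.95 in litter 1 and -0.40 in litter 2, or 0.28 ± 0.41 (SE; 95% interval -0.83 to 1.38; adjusted p = 0.793 over probes). In litter 2 it ran the same way as the other probes. In litter 1 its control array, with a processed signal of 159, stood below the other 3, which gave 282 to 376. With the mean of the 3 probes in place of the brightest, Soat1 differed by -0.36 (adjusted p = 0.219). Whether the probes read different transcript ends was not tested.

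**Figure D2:**
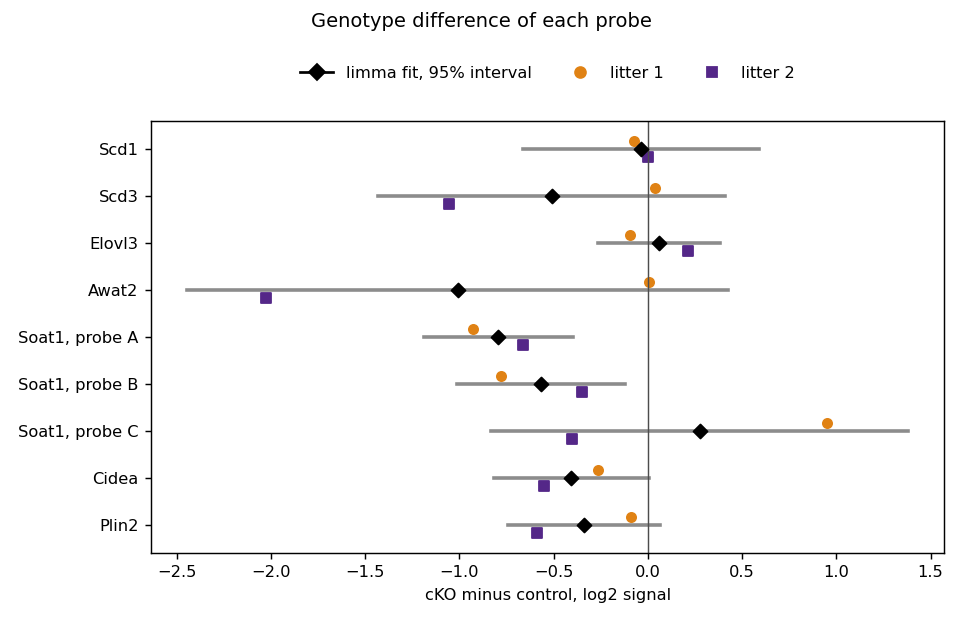
Difference between cKO and control skin on the log2 scale for each of the 9 measured member probes, with the Soat1 probes lettered in transcript order, as diamonds with 95% intervals from limma over 22190 probes. Circles (litter 1) and squares (litter 2) are single pairs of littermates, and the intervals of Soat1 probes A and B lie below 0 while all others include it.

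Cidea and Plin2 sit on lipid droplets. Cidea promotes the growth of droplets and the release of sebum lipids, and mice without it have dry hair. Its probe measured 4.21 and 3.84 in the cKO arrays, against 4.48 and 4.39 in the control arrays. Both cKO arrays were below both control arrays, with a difference of -0.26 in litter 1 and -0.55 in litter 2. The fit gave -0.41 ± 0.15 (SE; 95% interval -0.81 to 0.0021), or 75.5% of control (adjusted p = 0.312, and 0.169 with the replicate block). Without cKO replicate 2 the difference was -0.22.

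Plin2, the perilipin that coats small droplets in most cells, measured 4.34 and 4.16 in the cKO arrays, against 4.43 and 4.75 in the control arrays. The groups did not overlap, but the littermates of litter 1 differed by only -0.09, against -0.59 in litter 2. The fit gave -0.34 ± 0.15 (SE; 95% interval -0.74 to 0.06), or 79.1% of control (adjusted p = 0.374). Its probe lies on chromosome 4 (mm9, 86302676 to 86302735, minus strand). Without control replicate 2 it was -0.18.

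Mc5r, the melanocortin receptor that drives sebum secretion, gave processed signals of 21.5 and 21.5 in cKO skin, against 23.9 and 15.3 in control skin, and was not well above background on any array. No difference was detectable for it. Of 8 measured genes of the melanocortin system, 0 passed the test, with a median of 0.10. Mc2r, counted in that median, passed the filter only through the cKO arrays. It differed by 0.57 ± 0.52 (SE; adjusted p = 0.643). Mrap, an accessory protein of melanocortin receptors that fat cells also express, differed by 0.59 ± 0.09 (SE; adjusted p = 0.111), Mc4r by -0.34 ± 0.14 (SE; adjusted p = 0.338) and Mc1r, the pigment cell receptor, by 0.06 ± 0.09 (SE; adjusted p = 0.784).

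The close relatives of the members were read beside them. Cidec and Plin1, droplet proteins of the white fat cell, differed in the other direction from Cidea and Plin2. Cidec measured 4.60 and 4.63 in the cKO arrays, against 4.03 and 3.93 in the control arrays, a difference of 0.64 ± 0.09 (SE; adjusted p = 0.0952). Plin1 differed by 0.55 ± 0.10 (SE; adjusted p = 0.138), with both litters positive. With normexp background correction Cidec differed by 0.32 and Plin1 by 0.28. Neither gene passed the test, and the difference between relatives was not itself tested.

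Scd2, a desaturase used in many tissues, differed by 0.05 ± 0.16 (SE; 95% interval -0.39 to 0.49), with its arrays set apart by litter as those of Scd1 were. Soat2, the sterol acyltransferase of liver and gut, differed by -0.19 ± 0.10 (SE; adjusted p = 0.450). Far1, the more widely used fatty acyl reductase, differed by 0.0050 ± 0.14 (SE; adjusted p = 0.989), and Dgat2, which makes triglycerides, by 0.08 ± 0.11 (SE; adjusted p = 0.765).

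**Figure D3:**
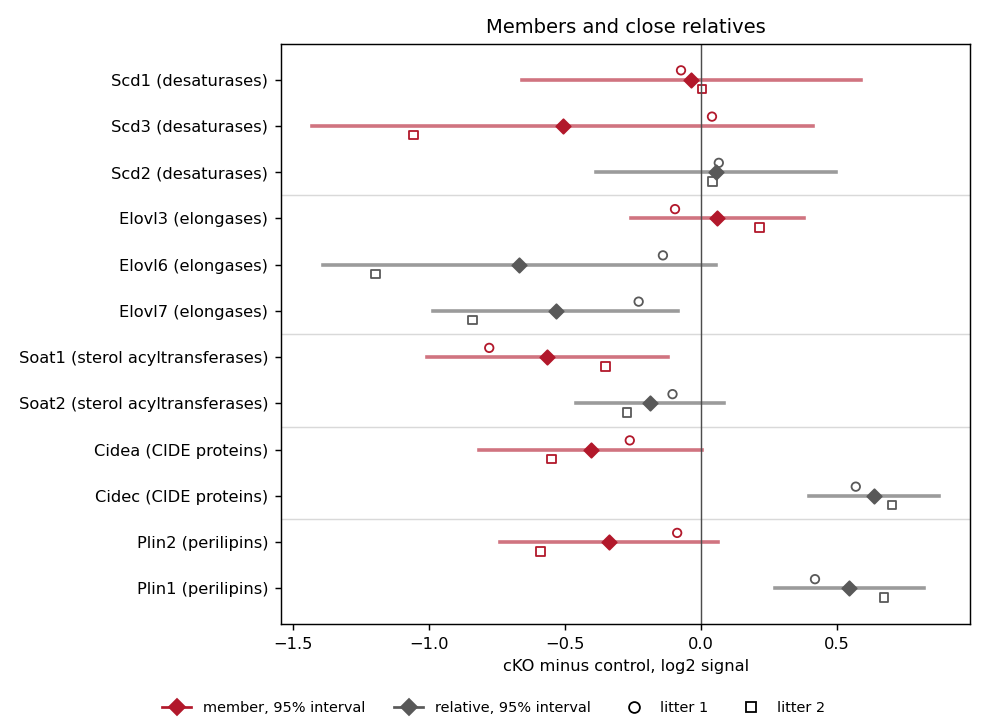
Difference between cKO and control skin on the log2 scale for measured members (red) and close relatives (grey), as diamonds with 95% intervals from limma over genes. Open circles are litter 1 and open squares litter 2: Cidea and Plin2 lie left of 0 and Cidec and Plin1 right of it in both litters, and Elovl6 lies farther left in litter 2.

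The pattern of Awat2, the member with the largest difference, was set against 147 measured genes of the other lists by the distance between the 4 array values after each gene's mean was taken off. The nearest were Elovl6 at a distance of 0.69, Elovl7 at 0.97 and Insig2 at 1.08. Elovl6 extends saturated fatty acids from the length that fatty acid synthase delivers, and it measured 4.28 and 3.84 in the cKO arrays, against 4.42 and 5.03 in the control arrays. Like Awat2, it was highest in the control and lowest in the cKO animal of litter 2, with a difference of -0.14 in litter 1 and -1.20 in litter 2 (-0.67 ± 0.27 in the fit, SE; adjusted p = 0.337). Without control replicate 2 it differed by -0.36. Elovl7 differed by -0.23 in litter 1 and -0.84 in litter 2, and Insig2 by -0.39 and -0.65. All of these genes were thus lower in cKO skin in litter 1 as well, where Awat2 differed by 0.0083. The 4 values of a gene allow no correlation to be given.

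Other genes of lipid making were described through lists, of which no member passed the test. Of 11 measured desaturases and elongases other than the members, 7 lay below 0 and 3 above 0 in each litter (median -0.20). Degs2, among the 7 below 0, passed the filter only through the control arrays and is given under the other observations. Lower in both litters stood 32.1% of all genes, and higher in both 40.4%. Fads2, the delta-6 desaturase that in human sebaceous glands also makes sebum fatty acids, measured 1.02 and 1.003 in the cKO arrays, against 1.48 and 1.66 in the control arrays (-0.56 ± 0.10, SE; adjusted p = 0.133). Fads3 differed by -0.54 ± 0.10 (SE; adjusted p = 0.129), and by -0.83 with normexp.

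Of 20 genes of cholesterol synthesis and uptake, which feeds Soat1, 12 lay below 0 and 8 above 0 in each litter (median -0.16). Msmo1, a sterol demethylation enzyme, differed by -0.45 ± 0.09 (SE; adjusted p = 0.158), and Idi1, an isomerase of the isoprenoid steps, by -0.40 ± 0.09 (SE; adjusted p = 0.167). With normexp Msmo1 differed by -0.73 and Idi1 by -0.66. Of 15 genes of fatty acid synthesis and its regulators, 6 lay below 0 and 7 above 0 in each litter (median -0.0056). The extremes were Thrsp, a lipogenic regulator, at 0.89 ± 0.08 (SE; adjusted p = 0.0534) and Insig1, which holds back the processing of SREBP, at -0.58 ± 0.08 (SE; adjusted p = 0.0952).

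Of 13 other acyltransferases and reductases of neutral lipid, 6 lay below 0 and 4 above 0 in each litter (median -0.02). Acsbg1, an acyl-CoA synthetase, differed by -0.38 ± 0.11 (SE; adjusted p = 0.243), and Acsl1, the main long-chain acyl-CoA synthetase of fat, by 0.48 ± 0.15 (SE; adjusted p = 0.246). With normexp Acsbg1 differed by -0.61 and Acsl1 by 0.17. Of 15 other droplet proteins and lipases, 4 lay below 0 and 8 above 0 in each litter (median 0.15).

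**Figure D4:**
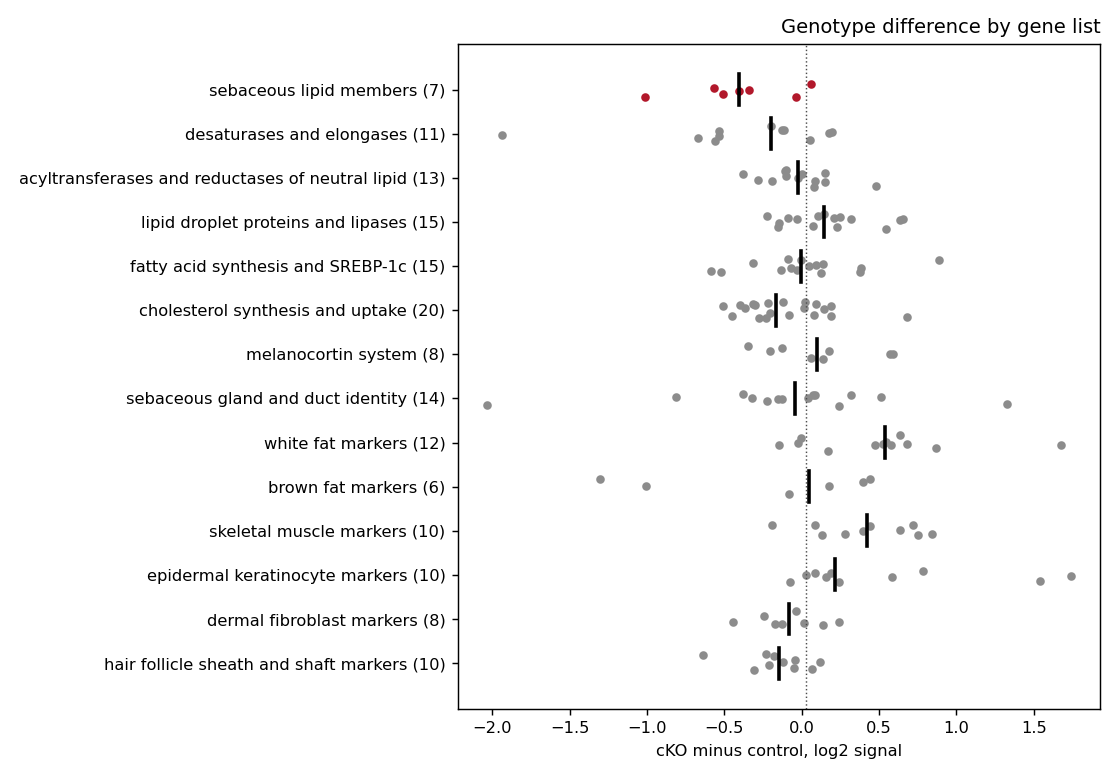
Difference between cKO and control skin on the log2 scale for each measured gene (points) of each list, with the number of measured genes in parentheses, the list's median as a black bar and the median over all genes as a dotted line. The 7 sebaceous lipid members (red) have a median of -0.41, the white fat markers one of 0.54, and the sebaceous gland and duct genes one of -0.04.

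The cells that carry these genes were read through marker lists. Of 14 measured genes of the sebaceous gland and duct, 7 lay below 0 and 6 above 0 in each litter (median -0.04), and 0 passed the test. Their summed signal, in multiples of the array's 75th percentile, was 146 and 135 in cKO skin, against 135 and 133 in control skin. Such sums follow the brightest genes of a list most, here Krt79, and the dim genes barely count in them. Krt79, a keratin of the gland's duct, measured 6.02 and 5.93 in the cKO arrays, against 5.90 and 5.90 in the control arrays (0.07 ± 0.09, SE; adjusted p = 0.715). Pparg, the nuclear receptor of sebocyte and fat cell differentiation, differed by 0.24 ± 0.10 (SE; adjusted p = 0.335). Krt7, a keratin of gland and duct epithelium, differed by 1.33 ± 0.17 (SE; adjusted p = 0.0840) and the growth regulator Myc by 0.51 ± 0.11 (SE; adjusted p = 0.159). Other genes of the list had lower values in cKO skin in each litter: Gata6, a transcription factor of the duct, differed by -0.81 ± 0.26 (SE; adjusted p = 0.270), the progenitor factor Sox9 by -0.32 ± 0.10 (SE; adjusted p = 0.250) and Lrig1, a marker of the stem cells above the bulge, by -0.22 ± 0.13 (SE; adjusted p = 0.469). Acsbg1, given above, and Hsd3b6 were also lower in each litter. Hsd3b6, however, passed the filter only through the control arrays and turned sign with normexp, as given under the other observations. Without cKO replicate 2 Gata6 differed by -0.45 and Lrig1 by -0.079. With normexp Pparg differed by 0.11, Myc by 0.32, Krt79 by -0.22, Gata6 by -0.53, Sox9 by -0.51 and Lrig1 by -0.49, and with the mean of its probes Sox9 differed by -0.056.

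Markers of white fat, which also expresses Scd1 and Plin2, were read for that reason. Of 12 measured, 8 lay above 0 and 1 below 0 in each litter. Their median was 0.54, or 0.45 for litter 1 alone and 0.62 for litter 2 alone. Their summed signal, in which Fabp4 and Cfd were the brightest genes, was 465 and 423 in cKO skin, against 391 and 292 in control skin. Of these 2, Fabp4 differed by -0.0015 ± 0.15 (SE; adjusted p = 0.997) and Cfd by 0.87 ± 0.26 (SE; adjusted p = 0.246). Lipe, the 1 marker below 0 in each litter, differed by -0.14 ± 0.09 (SE; adjusted p = 0.523). None of the 12 markers passed the test: Retn, the adipokine resistin, came nearest at 1.68 ± 0.15 (SE; adjusted p = 0.0534). Pck1 and Adrb3 were not measured. Of 10 skeletal muscle markers, 8 lay above 0 in each litter (median 0.42), with summed signals of 501 and 489 in cKO skin, against 462 and 339 in control skin. Mb differed by 0.84 ± 0.10 (SE; adjusted p = 0.0797) and Ttn by 0.64 ± 0.10 (SE; adjusted p = 0.115). Ttn came to 0.39 with normexp and to 0.21 (adjusted p = 0.703) with the mean of its probes. The 10 epidermal keratinocyte markers had a median of 0.22, with Krt1 at 1.74 ± 0.30 (SE; adjusted p = 0.127) and Flg at 1.54 ± 0.27 (SE; adjusted p = 0.129). In each litter 8 of them lay above 0 and 1, Krt15, lay below (-0.07 in the fit). The 10 hair follicle markers had a median of -0.15, with Krt27 at -0.63 ± 0.08 (SE; adjusted p = 0.0854) and Krt28 at -0.31 ± 0.10 (SE; adjusted p = 0.252). In each litter 7 of them lay below 0 and 1, Krt25, lay above (0.12 in the fit). Krt28 came to -0.63 with normexp and to -0.12 with quantile normalization. Of 8 fibroblast markers, 4 lay below 0 and 2 above 0 in each litter (median -0.08). The 2 above were Postn at 0.24 ± 0.11 (SE; adjusted p = 0.387), which came to -0.047 with normexp, and Pdgfra at 0.14 ± 0.11 (SE; adjusted p = 0.580). The 4 below were Col1a1 at -0.24, Col1a2 at -0.44, Col3a1 at -0.13 and Lum at -0.17, with adjusted p from 0.661 to 0.867. What part other cell types had in the values of the sebaceous lipid genes was not tested.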

How the data were processed

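RNA from 4 biopsies (500 ng each) was labelled with Cy3 and hybridised to Agilent whole mouse genome arrays (design 014868), per the labels' protocols and the file headers. The scanner software was Agilent Feature Extraction, given as 10.5 in the submitters' processing notes and as 10.7.3.1 in the file headers. The deposited intensity values are the authors' background-subtracted and detrended processed signals per spot, used as given. The authors' deposited series table holds log2 values, which equalled the 75th-percentile-scaled log2 signals minus each probe's median (column medians of -0.061 and 0.081 for cKO replicates 1 and 2, and of -0.076 and 0.056 for control replicates 1 and 2). That table served as an alternative.

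Here, processed signals were put on the log2 scale and the 75th percentile of their array was subtracted. Outlier-flagged spots (51 to 66 an array) were dropped, and repeated spots were averaged. Probes were kept if all 4 values existed and both arrays of 1 group passed the flag for signal well above background (22190 of 41174 probes). The brightest such probe stood for its gene (15552 genes). limma 3.58.1 in R 4.3.3 was used without a covariate, two-sided, with Benjamini-Hochberg adjustment. Names came from the accession for 26682 probes, matched to RefSeq of assembly GRCm38.p6, from a symbol or synonym for 5195 and 951, and from the files for 8346. The test was tried on simulated data with 2 arrays per group, where it recovered 51% of 2-fold and 90.2% of 4-fold changes.

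The replicate numbers mark litters in the labels. Deviations from the group means correlated at 0.35 across genes between littermates of equal number (Spearman 0.43). With so few arrays per group, exchanging the numbers within a group would only reverse the sign of these values. The correlation therefore cannot establish the pairing, which rests on the labels. All arrays shared 1 slide and 1 scan time, and precision is limited by there being only 4.

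The members and lists were chosen with earlier results of these data known. Named were all members, Adam17, close relatives, the 3 genes nearest in pattern, and from each list the genes past the threshold or, with none, the 2 of smallest p. Hsd3b6, Degs2, Krt79, Pparg, Gata6, Sox9, Lrig1, Col1a1, Col1a2, Col3a1 and Lum were chosen after their values were seen. So were Cfd, Fabp4, Lipe, Prdm16, Mc2r, Krt15 and Krt25, which the count of other named genes under the alternatives leaves out. Alternatives were litter as a block, each array left out, no filter, normexp, quantile normalization, the series table, every probe or the mean of a gene's probes, outlier spots kept, and a trended robust prior.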

Additional observations from a re-analysis of the deposited data

How the results depend on the processing

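Under all 13 alternatives 0 of the measured sebaceous lipid genes passed the test in limma, with 0 to 3 of them at an unadjusted p under 0.05. Over the 12 alternatives that give 1 value per gene, 79 of 84 values kept their direction and their side of the threshold. The exceptions were Elovl3 (-0.23 with normexp background correction, -0.063 to 0.18 with 1 array left out), Scd1 (-0.28 to 0.21 with 1 array left out) and Scd3 (0.0026 with normexp). Awat2, Soat1, Cidea and Plin2 kept their direction in all 12, although Awat2 came to only -0.17 with normexp. The median of the 7 lay between -0.56 and -0.22 with 1 array left out. Of 540 values of the 45 other named genes, 508 were alike, 10 passed the threshold newly (none of them in the fit with the replicate block) and 22 turned sign. With normexp the turned values were 0.73 for Mc4r, 0.65 for Soat2, 0.15 for Hsd3b6, -0.047 for Postn, -0.22 for Krt79, -0.23 for Dgat2, -0.22 for Far1 and -0.25 for Scd2. Far1 also turned with quantile normalization (-0.0059) and with the mean of its probes (-0.13). With 1 array left out, Far1 ranged from -0.13 to 0.14, Dgat2 from -0.0074 to 0.16, Scd2 from -0.10 to 0.21, Col1a1 from -0.61 to 0.13, Col1a2 from -0.96 to 0.076, Col3a1 from -0.48 to 0.22 and Lum from -0.56 to 0.22. The count of all genes past the threshold, 53, was 0 with the replicate block, without the filter and with normexp, 35 over every probe, 80 with quantile normalization, 215 with the trended robust prior, and 0 to 38 with 1 array left out. At an unadjusted p under 0.05 stood 3706 genes with the block, 2079 without the filter and 423 with normexp. The runs without control replicate 1 and without control replicate 2 also gave 0, with 1842 and 1750 genes at that level. Where 1 array is left out, the lone array of its group is assumed to vary like the other group. The replicate block changed the call of no sebaceous lipid gene. The cause of these shifts was not tested. With 2 arrays per group the intervals are wide, and dim probes such as Awat2 depend most on the background correction among the 4 members that kept their direction.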

Other observations

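The lists also held genes with large differences that did not pass the test. Hsd3b6, a steroid dehydrogenase known from mouse skin, measured -6.09 and -4.46 in the cKO arrays, against -4.04 and -2.45 in the control arrays. It passed the filter only through the control arrays, since 1 of the 2 cKO arrays was well above background. Degs2, which makes the phytoceramides of skin, measured -3.17 and -4.54 in the cKO arrays, against -2.02 and -1.81 in the control arrays, and passed the filter in the same way. Fitted differences of such genes rest on a cKO value that the scanner did not call well above background. With normexp background correction Hsd3b6 differed by 0.15 and Degs2 by -0.11.

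Elovl3 and Cidea are also known as genes of brown fat, whose markers were read for that reason. Ucp1, the uncoupling protein that defines brown fat, was not measured, nor were Otop1, Kng2 and Slc27a2. The 6 measured markers had a median of 0.05. Prdm16, counted in that median, passed the filter only through the control arrays. It differed by -1.30 ± 1.42 (SE; limma adjusted p = 0.698). Ppargc1a, a coactivator of mitochondrial genes that muscle also expresses, measured -2.06 and -2.40 in the cKO arrays, against -1.11 and -1.35 in the control arrays (-1.003 ± 0.16, SE; limma adjusted p = 0.116). It differed by -0.30 with normexp and by -0.70 with the mean of its probes. Fabp3, a fatty acid binding protein shared with muscle, differed by 0.44 ± 0.16 (SE; limma adjusted p = 0.309), and by 0.16 with normexp.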
